A study of Mus musculus with 70 samples.

Results

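The Zscan4 family was followed in GFP-labelled RENCA cells, a mouse renal carcinoma line, as the cells were passaged up to 6 times in BALB/c mice. Zscan4b, Zscan4c, Zscan4d and Zscan4f were chosen by the fall of Zscan4b between P3 and P6 in the kidney route, so the values of that contrast are given below as a description with no test. Of these 4 genes, 3 were among the 21154 genes with a named probe. Of 55681 non-control probes on the array, 5 belonged to these genes by the transcript in the probe's annotation. One detected Zscan4b, one detected Zscan4f and 3 detected Zscan4c. No probe was assigned to the Zscan4d transcript, so Zscan4d has no level of its own here. A further 2 probes were assigned to the transcribed pseudogene Zscan4a, which was followed beside the members. The copies are very alike, so a probe can bind RNA of several of them and the family was read as one signal.

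The 3 routes were compared with the parental cells (P0, 2 RNA samples), which were GFP-RENCA cells that had not been in a mouse. In the KPT route, cells were implanted under the kidney capsule and taken back from the primary tumor. In the T-LM route, cells were injected into the tail vein and taken back from lung metastases, and in the K-LM route, cells were implanted in the kidney and taken back from lung metastases. All hosts were immunocompetent female BALB/c mice, 6 weeks old for the implantations under the kidney capsule. The study's methods state that explanted cells were cultured for about 2 weeks, until GFP-negative cells were no longer seen, while the deposited labels name the samples as tumors or metastases. From P1 to P6 there were 5, 2, 2, 3, 5 and 5 KPT samples, 5, 2, 3, 4, 6 and 4 T-LM samples, and 1, 1, 5, 3, 4 and 3 K-LM samples. The P0 cells were shared by all 3 routes, every route derived from 1 parental line, and nothing in the labels ties a number to one mouse. The title of 1 T-LM sample at P1 gives neither route nor replicate number, and its place rests on its other labels.

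Zscan4 proteins carry a SCAN domain and zinc fingers. In mice the genes are known for a burst of transcription in the 2-cell embryo, and for rare, short-lived activation in cultured embryonic stem cells, where they are linked to telomere upkeep and to genome stability. They sit as a cluster of copies on chromosome 7, and other genes of the 2-cell stage are commonly switched on with them.

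The stretches before the start sites of the 4 genes are printed because they show how alike the copies are. They come from RefSeq (GRCm38.p6), hold the 250 bases before each start, run 5′ to 3′, and have the motif TATAAAA in capitals.
Zscan4b (chr7:10905051-10905300, minus strand): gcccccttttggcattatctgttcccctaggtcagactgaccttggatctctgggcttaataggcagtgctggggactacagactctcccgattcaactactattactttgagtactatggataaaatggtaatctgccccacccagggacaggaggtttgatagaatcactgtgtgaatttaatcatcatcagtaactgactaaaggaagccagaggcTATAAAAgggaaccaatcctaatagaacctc
Zscan4c (chr7:11005495-11005744, plus strand): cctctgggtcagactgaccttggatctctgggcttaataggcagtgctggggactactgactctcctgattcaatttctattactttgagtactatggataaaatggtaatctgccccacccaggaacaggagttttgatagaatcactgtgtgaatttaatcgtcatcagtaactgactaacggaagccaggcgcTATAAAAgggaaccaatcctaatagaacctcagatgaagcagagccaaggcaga
Zscan4d (chr7:11166149-11166398, minus strand): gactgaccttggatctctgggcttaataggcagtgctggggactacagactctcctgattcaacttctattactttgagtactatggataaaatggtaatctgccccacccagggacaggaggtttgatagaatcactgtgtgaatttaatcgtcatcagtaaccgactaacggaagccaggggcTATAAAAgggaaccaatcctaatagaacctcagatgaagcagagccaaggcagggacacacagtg
Zscan4f (chr7:11397665-11397914, plus strand): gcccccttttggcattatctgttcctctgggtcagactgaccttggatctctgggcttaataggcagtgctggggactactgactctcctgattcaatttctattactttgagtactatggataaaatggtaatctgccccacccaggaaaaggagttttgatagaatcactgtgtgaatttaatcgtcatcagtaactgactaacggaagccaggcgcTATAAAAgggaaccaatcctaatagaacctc
Over their overlapping part, Zscan4c and Zscan4f shared 226 of 227 aligned positions (99.6%), and the lowest identity of a pair was 94.7%, between Zscan4b and Zscan4c. The motif was searched on both strands. It was found once before each of the 4 genes, on the gene's own strand. Of 32851 promoters of the same length, 3.02% had it on the gene's own strand and 4.98% on either strand. It ended 24 bases before the annotated start of Zscan4b and Zscan4f, 47 before that of Zscan4c and 58 before that of Zscan4d. This is a match of letters only, and no binding was measured.

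Levels are log2 signals relative to the 75th percentile of each array over the 11290 probes well above background on every array, so a less negative number is a higher level. A probe counts as detected where the scanner software marks it well above background, which was the case for 25.3% to 55.3% of probes per array. In P0, Zscan4b was -7.54 and -8.14 and was not well above background on any array. Over all passages, Zscan4b was detected in 16 of 17 K-LM samples, 13 of 22 KPT samples and 10 of 24 T-LM samples. Zscan4f was detected in 16 K-LM, 14 KPT and 13 T-LM samples, and in 1 of the 2 P0 samples. For the Zscan4c probe A_55_P2007017 the numbers were 12, 4 and 3, with none in P0. The remaining Zscan4c probe, A_52_P363843, was well above background on 1 of 70 arrays and was not tested. In bulk RNA, more cells with the transcript and more RNA per cell cannot be told apart.

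In the KPT route, whose P3 and P6 values chose the family, Zscan4b stood highest at P3. The 5 P1 samples lay between -7.54 and -6.41 and the P2 samples were -5.18 and -5.66. The P3 samples were -4.21 and -3.98. The P4 samples spread widely, at -4.79, -6.95 and -5.24, and the 5 P5 samples lay between -7.40 and -6.19. At P6 the 5 samples lay between -6.67 and -6.25, all below both P3 samples. Zscan4f, -4.26 and -3.83 at P3 and between -6.49 and -5.96 at P6, took the same course. An index of RNA quality, the level of long mRNAs relative to ribosomal protein mRNAs, was lowest at P3, where Zscan4b was highest. Its mean was -5.61 at P1, -7.85 at P2, -8.15 at P3, -6.03 at P4, -7.26 at P5 and -6.30 at P6. From P4 to P5 the index and the mean of Zscan4b (-5.66 and -6.61) both fell. The part of the index in this course was not tested.

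In the K-LM route, Zscan4b was high at P3 and P5, and mixed at P4. The single P1 and P2 samples were -6.72 and -6.19. The 5 P3 samples were -5.16, -4.40, -3.77, -3.44 and -3.36. At P4 the 3 samples were -6.63, -6.56 and -3.53, so that 1 sample stood with P3 and the others near P1. The 4 P5 samples were -4.65, -4.79, -4.14 and -3.65, and the 3 P6 samples were -5.62, -5.25 and -4.74. Every K-LM sample lay above both P0 samples. So did every KPT sample and all T-LM samples except the lowest at P4 (-8.48).

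In the T-LM route, Zscan4b ran from -8.48 to -4.43 over all samples, with wide spreads within passages. The P1 samples lay between -6.97 and -6.30, the P2 samples were -5.08 and -5.83, and the P3 samples were -6.00, -5.36 and -5.88. At P4 the 4 samples were -7.21, -5.93, -8.48 and -6.46. The 6 P5 samples ran from -7.13 over a median of -6.14 to -4.43, and 1 sample stood well above the rest. The P6 samples were -5.44, -5.98, -7.05 and -7.08.

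**Figure D1:**
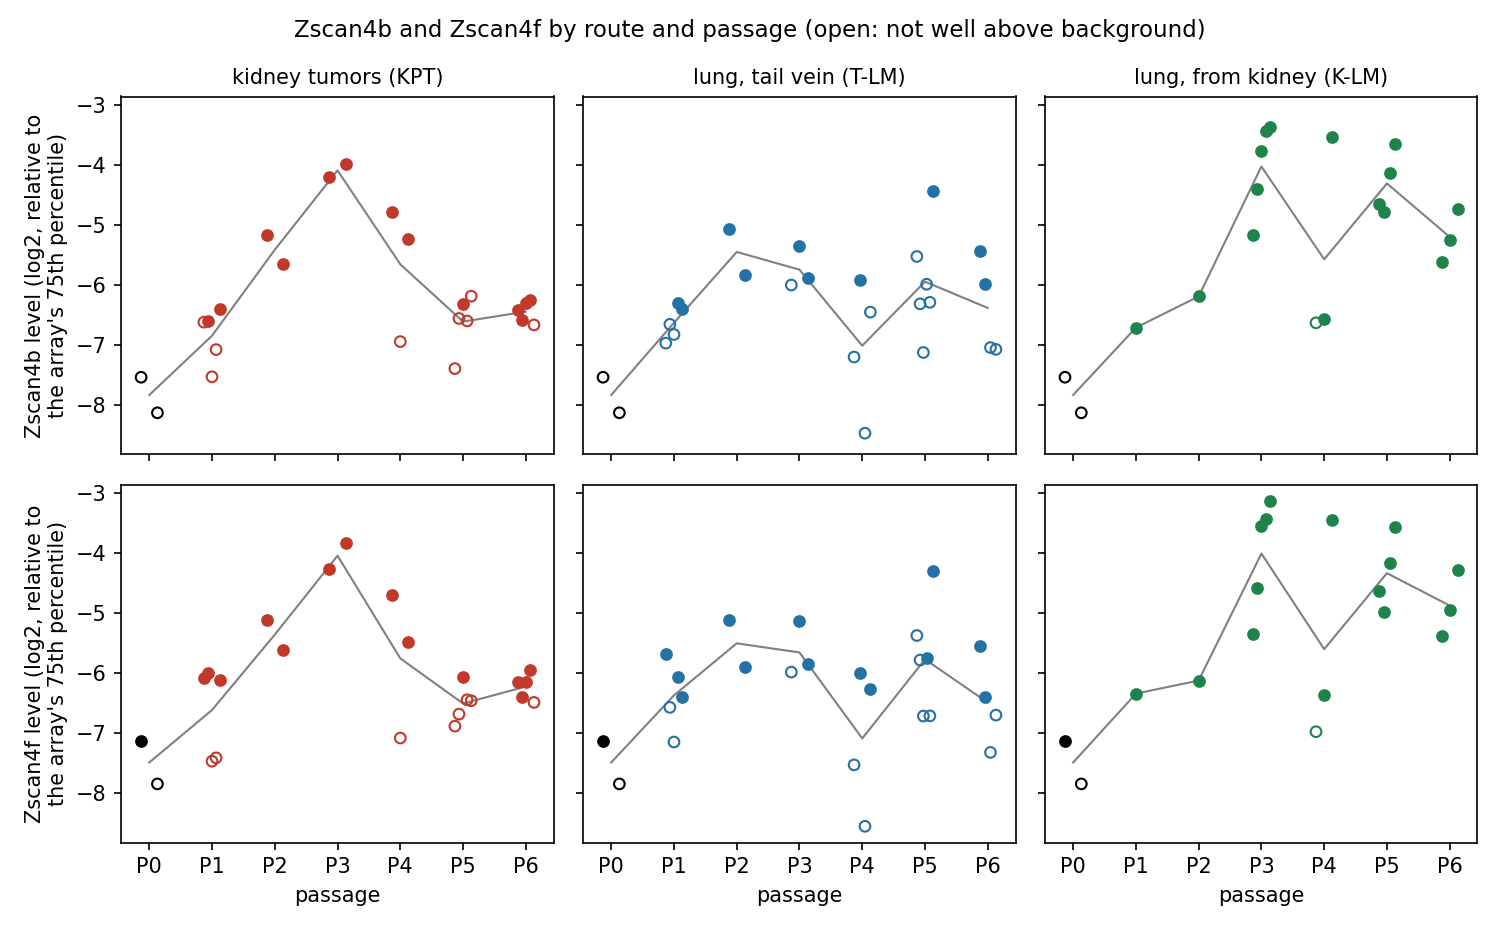
Level of Zscan4b (upper row) and Zscan4f (lower row) on the y axis (log2, relative to the array's 75th percentile) against passage on the x axis, for the KPT, T-LM and K-LM routes, with the P0 samples in black in each panel. Each point is 1 RNA sample, open where the probe was not well above background, and the grey line joins group means; Zscan4b in K-LM reached -3.36 at P3 and lay between -5.62 and -4.74 at P6, while KPT was between -6.67 and -6.25 at P6.

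By group mean, Zscan4b was highest in K-LM at P3 (-4.03 ± 0.75, SD, n = 5), KPT at P3 (-4.09 ± 0.16, n = 2) and K-LM at P5 (-4.31 ± 0.52, n = 4). K-LM at P6 came next (-5.20 ± 0.44, n = 3), and P0 was lowest (-7.84 ± 0.42, n = 2). Of the 18 pairs of neighbours in this order, all 18 had overlapping ranges. The gap exceeded the SDs of both groups in 1 pair only, K-LM P5 and K-LM P6, with a gap of 0.89.

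The probes moved together. Over the 65 RNA samples, the 15 pairs among the 6 probes detected on more than 1 array had Pearson correlations from 0.89 to 0.97, and the pairs with A_52_P363843 had 0.62 to 0.77. These points share arrays, and the probes may read the same transcripts.

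The first tested question was whether the cells taken from lung metastases of kidney tumors differed from the parental cells. Limma was run on all detected probes, and a probe was called where its p, adjusted by Benjamini-Hochberg over all probes, was at most 0.01. From P0 to P3 in K-LM, a comparison added after the levels were seen, Zscan4b rose by 3.73 ± 0.71 (SE) on the log2 scale, with an adjusted p of 0.00833 by limma. Since no P0 array of this fit had it well above background, the rise is read as at least 3.8-fold, where each P0 array is set to the higher of the probe's own level and the lowest level well above background on that array. Such bounds were used for family probes dim on every array of a group. Zscan4f, which was detected in P0 only on the later slide outside this fit, and the Zscan4c probes were measured at least 3.86-, 2.09- and 2.2-fold higher. Their adjusted p-values by limma were 0.0241, 0.028 and 0.0339, so 1 of 4 tested member probes was called, against 1.64% of all 20570 probes tested. All 4 were dim on every P0 array of this fit, so they entered the test through K-LM arrays alone. In all 4, no K-LM P3 sample overlapped P0, and the same held for the T-LM P3 samples. The share of all probes without overlap was not computed. The Zscan4b call was lost when any of 6 of the 7 samples was left out, with a blocked replicate number (adjusted p = 0.0435) with an RNA quality index as covariate (adjusted p = 0.171), and with every array raised to one floor at -5.00, the highest of these lowest levels over the 70 arrays (1.01, adjusted p = 0.327), while the difference stayed between 3.56 and 4.01 without a sample.

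From P0 to P6 in K-LM, Zscan4b rose by 2.73 ± 0.63 (adjusted p = 0.00653 by limma), or at least 2.6-fold, and it was the 1 of 4 tested member probes called, against 4.76% of all 22333 probes tested. Zscan4f differed by 2.61 ± 0.69 (adjusted p = 0.0188) and the Zscan4c probes, dim on every P0 array, were measured at least 1.72- and 2.07-fold higher without a call. All K-LM P6 arrays lay on 1 slide scanned apart from the rest, on which P0 was repeated, and within that slide the 4 probes differed by 1.84 to 2.72. The Zscan4b call was lost without any one of the 5 samples (adjusted p between 0.0127 and 0.124) on the deposited quantile normalized values (1.61, adjusted p = 0.0489), and with the floor at -5.00, above most K-LM P6 values (0.087, adjusted p = 1). With the replicate block, 2 member probes were called.

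Within K-LM, no member probe was called from P3 to P6, where the fitted values lay between -1.02 and -0.76, against 3.55% of all 22333 probes tested. None was called from P3 to P4 (1.43% of all 20570 probes tested) or from P4 to P5 (0.0194% of all 20570 probes tested). The 4 probes had an unadjusted p under 0.05 from P3 to P4, and none had one in the other 2 comparisons.

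In the T-LM route, no member probe was called against P0 at P6, where Zscan4b differed by 1.37 ± 0.66 (adjusted p = 0.22 by limma) and the Zscan4c probes were dim in both groups, against 7.3% of all 21384 probes tested. None was called from P0 to P3 (1.86% of all 21384 probes tested), although 3 of 4 had an unadjusted p under 0.05, nor from P0 to P1 (2.56% of all 23493 probes tested) or from P1 to P6 (9.25% of all 23493 probes tested). From P3 to P6 all 4 were lower, by 0.64 to 1.31 on the log2 scale, with none called (6.99% of all 21384 probes tested), and from P3 to P4 none was called (3.58% of all 21384 probes tested). With the replicate block, 1 member probe passed in each of these last 2 comparisons. The Zscan4c probe A_55_P2007017 rose by 1.14 ± 0.29 from P4 to P5 (adjusted p = 0.00849), where 11.9% of all 21384 probes tested were called. It fell by 1.20 ± 0.29 from P5 to P6 (adjusted p = 0.0057), where 13.4% of all 21384 probes tested were called. The probe was well above background on 1 of the 6 P5 arrays and on none at P4 or P6, so these are differences of at least 1.15-fold and 1.09-fold. The P4 to P5 call was lost without any of 8 of the 10 samples and the P5 to P6 call without any of 5 of the 10, among them T-LM P5 replicate 6, without which the probe was too dim to be tested. Both were also lost with the RNA quality index as covariate (adjusted p = 0.0175 and 0.0187) and with the floor.

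In the KPT route, outside P3 and P6, no member probe was called from P0 to P1 (1.54% of all 21750 probes tested), P0 to P5 (2.65% of all 21750 probes tested), P1 to P5 (11.6% of all 21750 probes tested) or P4 to P5 (0.271% of all 21750 probes tested). Zscan4b differed from P0 to P5 by 1.14 ± 0.47, with an adjusted p of 0.172 by limma. Of the 3 tested member probes, 1 had an unadjusted p under 0.05 in that comparison, 1 from P4 to P5, and none in the other 2.

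Routes were compared with each other at P1, P5 and P6. In K-LM against KPT, all 4 tested member probes were called, against 7.39% of all 19738 probes tested. Zscan4b was 2.30 ± 0.43 higher in K-LM (adjusted p = 0.00242 by limma), Zscan4f 2.17 ± 0.42 (adjusted p = 0.00318), and the Zscan4c probes at least 2.39- and 2.26-fold higher (adjusted p = 0.00142 and 0.00607). Both Zscan4c probes were well above background on 3 of 4 K-LM arrays and on none of 5 KPT arrays, so they entered the test through K-LM. The Zscan4a probe A_65_P06115, on 2 and 0 of these arrays, was at least 1.57-fold higher (adjusted p = 0.00109 by limma). The other Zscan4a probe, A_55_P2007016, on 3 and 0 of these arrays, was at least 2.01-fold higher without a call (adjusted p = 0.0205 by limma). For Zscan4f the K-LM samples were -4.63, -4.98, -4.17 and -3.56, and the KPT samples -6.89, -6.69, -6.06, -6.45 and -6.46. The groups did not overlap for any of the 4 probes, which are read as a single signal. How many of all probes had no overlap was not computed. The call of the Zscan4c probe A_55_P2019533 was lost without any of 7 of the 9 samples (adjusted p up to 0.026 by limma) and with the replicate block (adjusted p = 0.0138), so that all 4 were called in only 2 of the 9 cases. Without K-LM P5 replicate 6 only 1 of the 4 was called, without replicate 5 there were 2, and with the floor none was. KPT at P5 took no part in choosing the family, but it belongs to the route whose fall chose it. The 2 slides that held both groups had 1 array of each. On both slides K-LM was higher for the 4 probes, by 1.12 to 1.95.

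The index of RNA quality also differed between the groups compared. The index was lower in K-LM at P5 (-8.23, n = 4) and P3 (-8.03, n = 5) than in KPT at P5 (-7.26, n = 5) and P0 (-6.51, n = 2), and over 65 samples its Pearson correlation with the mean of the 4 tested member probes was -0.49. With the index as covariate, the differences between K-LM and KPT at P5 grew to between 2.22 and 2.76 while their adjusted p-values by limma rose to between 0.0145 and 0.0264, so that no member probe was called. Its part in the result was not tested further. K-LM at P6 had an index of -6.36, near that of P0, and the Zscan4b value from P0 to P6 with the covariate was 2.72 (adjusted p = 0.00668).

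**Figure D2:**
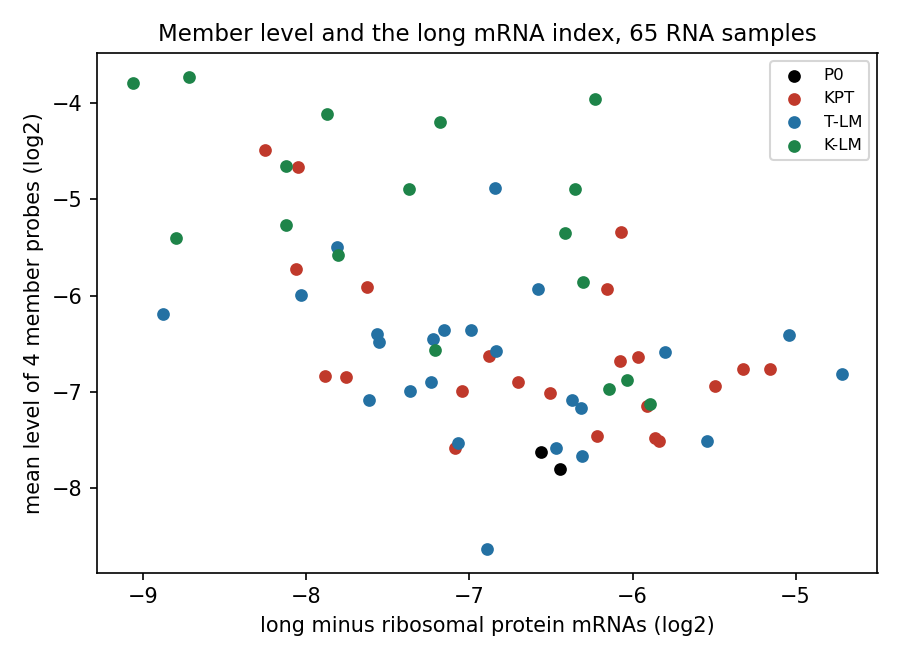
Mean level of the 4 tested member probes on the y axis (log2, relative to the array's 75th percentile) against the index of long minus ribosomal protein mRNAs on the x axis (log2), 1 point for each of 65 RNA samples, colored by route. Samples with a lower index tended to have higher member levels (Pearson -0.49), and K-LM at P6 had an index mean of -6.36 against -6.51 in P0.

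Between the 2 metastatic routes at P5, K-LM was higher than T-LM by 1.64 ± 0.41 for Zscan4b and by 1.20 to 1.44 for the other 3 tested probes. The adjusted p-values lay between 0.021 and 0.0396 by limma, so none was called (3.41% of all 19738 probes tested), and the groups overlapped through T-LM P5 replicate 6. Without that sample all 4 were called. T-LM and KPT at P5 gave no call, with differences of 0.58 to 0.74 (5.42% of all 19738 probes tested). At P1 T-LM and KPT gave no call among 3 tested member probes, where 0% of all 23145 probes tested were called by limma and 2195 had an unadjusted p under 0.05.

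At P6, in a comparison added after the levels were seen, the Zscan4c probe A_55_P2007017 was 2.12 ± 0.46 higher in K-LM than in T-LM (adjusted p = 0.00174 by limma), or at least 1.83-fold. It was -6.37, -5.80 and -5.38 in K-LM and -7.51, -8.00, -7.73 and -7.92 in T-LM, with no overlap. No slide held both groups, and the term for the later slide rests on RNA of P0 and KPT samples repeated on it. The call was lost with slide as random block (2.10, adjusted p = 0.0109), without K-LM P6 replicate 2 or 3 (adjusted p = 0.0115 and 0.0184) and with the floor at -5.00, which lies above all 7 values. The other 3 tested probes differed by 1.36 to 2.23 without a call, so 1 of 4 was called, against 3.07% of all 26349 probes tested. The difference between the routes in their change from P3 to P6 was not called for any member probe, with fitted values from -0.36 to 0.53 and adjusted p-values from 0.786 to 0.987 (0.812% of all 26349 probes tested).

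**Figure D3:**
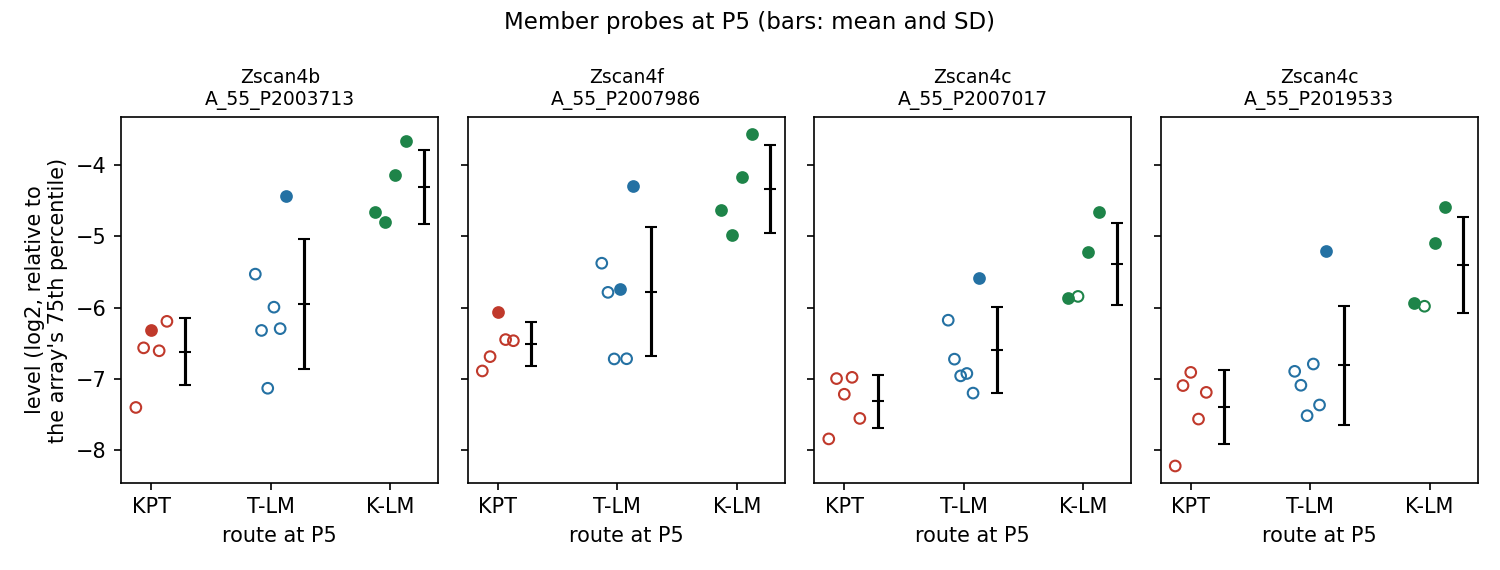
Levels of the 4 tested member probes at P5 (y axis, log2 relative to the array's 75th percentile) by route on the x axis, with 1 point per RNA sample, open where the probe was not well above background, and bars giving the mean and SD. For Zscan4f, the K-LM samples lay between -4.98 and -3.56 and the KPT samples between -6.89 and -6.06, and 1 T-LM sample reached -4.30.

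**Figure D4:**
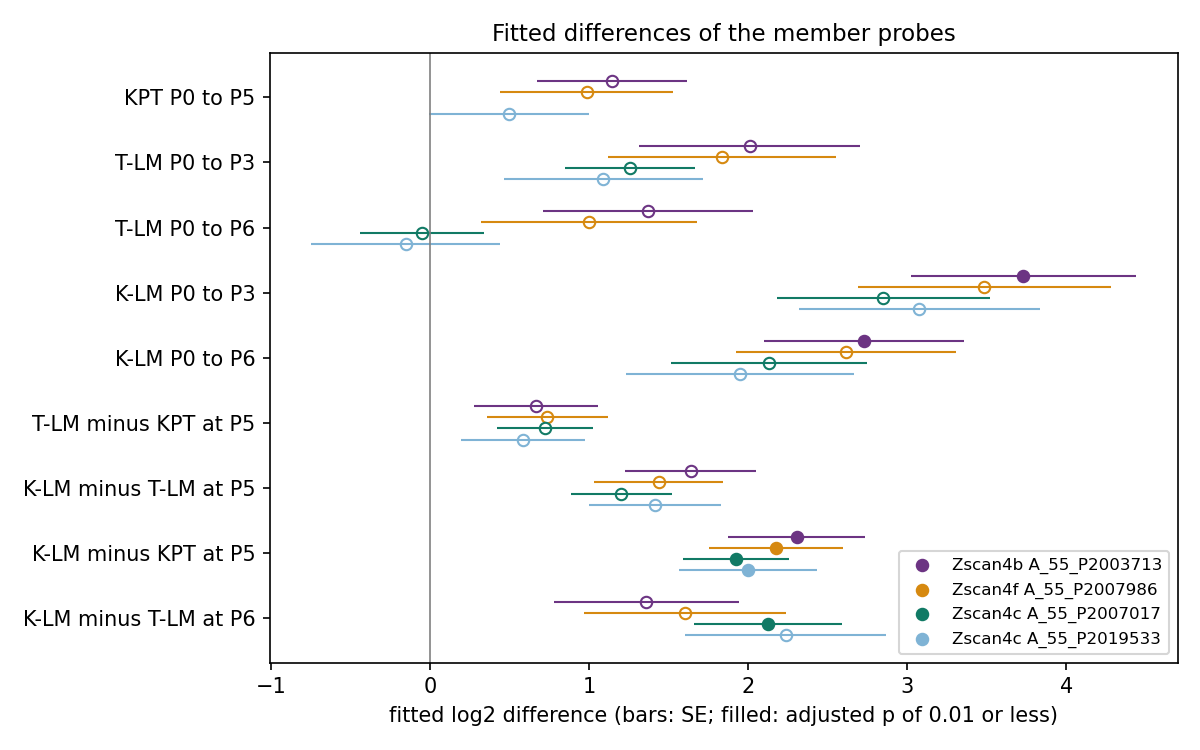
Fitted log2 differences (x axis) of the 4 tested member probes in 9 comparisons (y axis), with bars giving the SE and filled points an adjusted p of 0.01 or less; a probe that was not tested in a comparison has no point. All 4 probes were filled for K-LM minus KPT at P5, with fitted values from 1.92 to 2.30; those of the Zscan4c probes are against KPT arrays that were all dim.

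Other genes known from the 2-cell stage were called in these K-LM comparisons, and also in T-LM comparisons where the family was not. The list was chosen with earlier results of these data known, and 35 of its 49 genes had a named probe. In K-LM against KPT at P5, 10 of 18 tested genes were higher and none was lower, with a median of 1.60, while 572 of 19738 probes were higher and 887 lower with a median of -0.06 over all. Gm8300 was higher by 2.30 ± 0.32, Spopfm2 by 2.88 ± 0.50, Tcstv1 by 2.64 ± 0.53 and AF067061 by 2.18 ± 0.44. Spopfm2 and Tcstv1 were well above background in 0 of 5 KPT samples and in 4 and 3 of 4 K-LM samples. They thus entered the test mainly through K-LM, and their fitted values are against dim levels. No bounds were computed for list genes, and the count and median include genes that passed the filter in this way. From P0 to P6 in K-LM, 9 of 18 tested genes were higher and none lower (median 2.10, against 0.002 over all). Of all probes, 3.61% were higher there. Gm2022 rose by 4.96 ± 0.36 and Gm2016 by 4.02 ± 0.31. In K-LM against T-LM at P5, 5 of 18 were higher and none lower, while 1.75% of all probes were higher. In T-LM, 7 of 18 were higher from P0 to P6 (median 0.60), against 5.9% of all probes. From P3 to P6, 4 of 18 were higher (median -0.29), against 5.62%, and from P1 to P6, 5 of 20, against 3.82%. None was lower and no family probe was called in any of these. From P4 to P5 in T-LM, where a Zscan4c probe rose, 1 of 18 was higher and 2 were lower, against 3.71% and 8.24% of all probes. From P5 to P6 in T-LM, where a Zscan4c probe fell, 4 of 18 were higher and 1 was lower, against 10.1% and 3.32% of all probes. From P0 to P3, 5 of 18 were higher in K-LM and 4 of 18 in T-LM, against 1.37% and 1.45% of all probes, and none was lower. Many of these genes are multicopy, and their probes can read each other's transcripts.

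Over 12945 genes compared, the genes whose level was most like the mean of the 7 family probes across 65 samples were AF067061 (Pearson 0.93), BC147527 (0.93), Gm20767 (0.92), Pramel20 (0.91), Gm4312 (0.91), Gm4340 (0.90), Spopfm2 (0.89) and Tcstv1 (0.89). AF067061, Gm4340, Spopfm2 and Tcstv1 were also on the 2-cell-stage list. That list did not follow the family as a whole. Its compared genes ran from 0.93 for AF067061 down to -0.17 for Usp17la, with 0.33 for both Gm2016 and Gm2022 and 0.12 for Zfp352. Without the KPT samples at P3 and P6 the same 8 values lay between 0.88 and 0.93. The lowest values belonged to Arhgef2, Ubap2l, Prickle1 and Hirip3, all -0.66. AF067061 was -5.67 ± 0.36 in P0 (n = 2), -4.97 ± 0.29 in KPT at P5 (n = 5), -4.73 ± 0.94 in T-LM at P5 (n = 6) and -2.79 ± 0.64 in K-LM at P5 (n = 4).

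**Figure D5:**
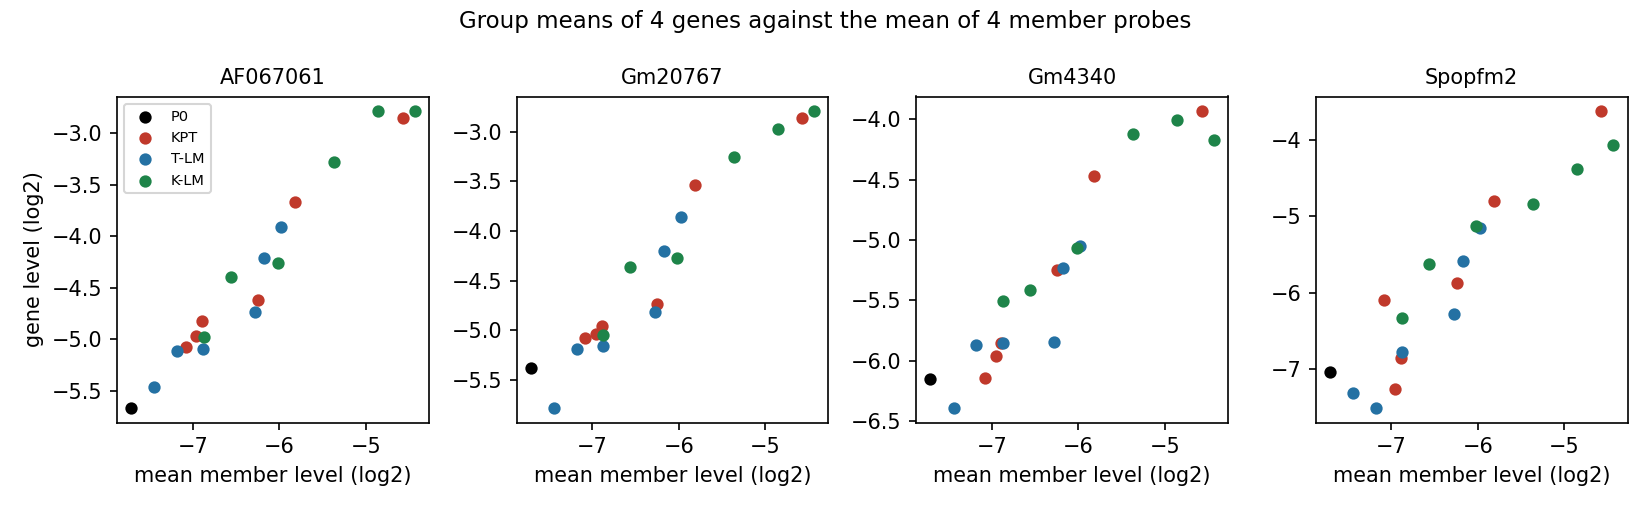
Group means of AF067061, Gm20767, Gm4340 and Spopfm2 (y axes, log2 relative to the array's 75th percentile) against the group mean of the 4 tested member probes (x axis, same scale), 1 point for each of the groups of route and passage. The KPT and K-LM groups at P3 and K-LM at P5 stand at the upper right of each panel, with AF067061 near -2.8.

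Of 27 tested genes that act on Zscan4 transcription, 1 was higher and 3 were lower in K-LM than in KPT at P5, where 7.39% of all probes were called in either direction. Tbx3, a T-box factor, was 2.99 ± 0.63 higher (adjusted p = 0.00511 by limma). The DNA methyltransferases Dnmt3a and Dnmt1 were lower, by -1.84 ± 0.29 and -0.93 ± 0.22, and so was Zmym3, by -0.66 ± 0.16. From P0 to P6 in K-LM none of 29 was called, against 4.76% of all probes, and Tbx3 differed by 3.33 ± 0.95 (adjusted p = 0.0304). Of the pluripotency genes, Klf4 was higher (0.75 ± 0.18) and Tfcp2l1 lower (-1.45 ± 0.22) in K-LM than in KPT at P5, among 8 tested, while Klf2 (1.75 ± 0.38) and Klf5 (1.59 ± 0.30) rose from P0 to P6 in K-LM, among 9 tested. Of the telomere genes, none of 18 was called in K-LM against KPT at P5 and none of 19 from P0 to P6 in K-LM. Of the meiotic recombination genes, 1 of 6 was lower in K-LM than in KPT at P5. Of 12 other SCAN domain genes tested in that comparison, 1 was lower and none was higher, near the share over all probes.

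Markers of other cells were read beside these values. Of the 8 renal epithelial markers, Epcam, Cdh1 and Pax2 were not well above background in any P0 sample or in the K-LM samples of P3 and P5, and 4 markers were detected in every sample of K-LM at P3 and P5. Of the 7 oocyte and germ line markers, 2 were detected in each P0 sample, 1 to 2 in KPT samples at P5 and at most 1 in K-LM samples at P3 and P5, while Ddx4, Dazl, Zp3, Tex101 and Acrv1 were detected in no sample of these groups. Their summed linear level was 0.0739 to 0.0792 in P0, 0.0269 to 0.155 in K-LM at P3, 0.0306 to 0.13 in K-LM at P5 and 0.0709 to 0.174 in KPT at P5. The summed linear level of the 8 leukocyte markers was 2.52 to 3.66 in K-LM at P5 and 4.23 to 9.17 in KPT at P5. That of the 5 fibroblast markers was 1.27 to 3.25 and 0.379 to 11.4. In the comparisons with P0, the fibroblast sum was 0.0234 to 0.0301 in P0, 0.135 to 0.316 in K-LM at P3 and 0.557 to 1.62 in K-LM at P6. The sum of the 4 endothelial markers was 0.38 to 0.427 in P0, 0.672 to 1.49 in K-LM at P3 and 0.395 to 0.459 at P6. That of the 5 lung epithelial markers was 0.0212 to 0.0237 in P0, 0.0251 to 0.0429 in K-LM at P3 and 0.0619 to 0.101 at P6. The leukocyte sum was 2.4 to 2.9 in P0, 2.93 to 4.7 in K-LM at P3 and 2.75 to 4.13 at P6. The part of these markers in the results was not tested. Between the outermost copies of the cluster, no gene outside the family had a probe. Of the 10 nearest genes with a probe, 8 were well above background on 0 of 70 arrays and Nlrp4b on 1, so the course of these could not be read. The remaining gene, Vmn1r70, was well above background on 42 of 70 arrays, and its Pearson correlation with the family was -0.12.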

How the data were processed

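RNA of 65 samples was hybridised to 70 one-colour Agilent mouse arrays (Cy5), with 5 RNA samples measured again on a later slide. The deposited scanner files give processed signal intensities per spot after the scanner software's background correction (versions 11.0.1.1 on 62 arrays and 12.0.2.2 on 8). The deposited series table holds log2 values that the authors quantile normalized. Flagged outlier spots and controls were left out, spots of a probe were averaged, and log2 intensities were scaled to each array's 75th percentile over 11290 probes. Gene names came from matching each probe's transcript to RefSeq (GRCm38.p6): 28026 of 55681 probes matched 21154 symbols. Array number limits the precision.

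Limma 3.58.1 (R 4.3.3) was run across every probe that at least 2 arrays of a fit showed well above background, with Benjamini-Hochberg adjustment and a threshold of 0.01 as in the study's methods. K-LM at P6 was fitted with a term for the later slide and RNA sample as random block. The study's methods tell of several mice per route and passage, but the labels tie no sample to a mouse, so p-values measure the spread between these samples. The members and the gene lists were chosen with earlier results of these data known. All family probes are described, list genes are named where called or among the 4 largest changes of their list, and likeness was ranked by Pearson correlation over one probe per symbol. The RNA quality index is the mean log2 level of 19 long mRNAs minus that of 80 ribosomal protein mRNAs, with no filter on detection. It was first computed over probes well above background on every array (9 and 76 mRNAs), then over those on 90% of arrays (14 and 77), before the unfiltered form of the written design was restored. All 3 forms were run as covariates. On simulated data with the layout of K-LM against KPT at P5 (19738 probes), 74.6% of probes changed by 2 on the log2 scale were recovered. The share at 2 was 82.1% for K-LM P0 to P6, 44.8% for K-LM P0 to P3 and 68.7% for T-LM P0 to P6. For a change of 1 it was 37.3% in K-LM against KPT at P5. In the same order as above, it was 14.9%, 5.97% and 11.9% in the layouts with P0. Changes near 1 could thus be missed. For normexp (offset 50) the median signal was used, the mean signal not being used here.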

Additional observations from a re-analysis of the deposited data

Results flagged for a closer look

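In 45 groups of 4 to 6 samples of a member probe, 2 had a sample standing apart by Dixon's test, and chance gives about 1 in 20. The Zscan4c probe A_52_P363843 was -6.11 in T-LM P1 replicate 2, the 1 sample in which it was well above background. The Zscan4c probe A_55_P2019533 was -5.21 (-5.205) in T-LM P5 replicate 6, the sample that was also highest for Zscan4b and Zscan4f at that passage. The change of the Zscan4c probe A_55_P2007017 from P0 to P6 was 2.12 larger in K-LM than in T-LM on the log2 scale, which equals the difference between the routes at P6 since they share P0 (adjusted p = 0.00174 by limma).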

How the results depend on the processing

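Counts here are member probes called, of 4 or fewer tested (5 with no filter). Of 490 alternative counts, 412 stayed within 1.5 times the main count. Most comparisons had a main count of 0, and a count that stayed at 0 is among the 412. Where the main count was above 0, counts moved more often. Apart from leaving out samples, they moved in 9 of 13 settings for K-LM P0 to P3 and 9 of 15 for K-LM P0 to P6. They moved in 5 of 13 for K-LM minus KPT at P5 and 3 of 12 for K-LM minus T-LM at P6. For T-LM P4 to P5 and P5 to P6 it was 8 of 13 each. The 3 forms of the RNA quality index each gave 0 calls for K-LM P0 to P3, K-LM minus KPT at P5, T-LM P4 to P5 and T-LM P5 to P6. The form used therefore decided none of these. For K-LM P0 to P3 (main 1), the all-routes model and the 2 groups alone gave 4, and the floor, normexp, slide block and replicate block gave 0. For K-LM P0 to P6 (main 1), the groups alone gave 4, the all-routes model, slide block and late slide alone 3, the replicate block and no slide term 2, and normexp, the deposited values and the floor 0. For K-LM minus KPT at P5 (main 4), the floor gave 0 and probes detected throughout a group 2, the only 2 tested there. K-LM minus T-LM at P5 (main 0) gave 1 on the deposited values. K-LM minus T-LM at P6 (main 1) gave 2 with the groups alone and 0 with the floor or slide block. T-LM P3 to P4 and P3 to P6 (main 0) each gave 1 with scaling over all probes and 1 with the replicate block, and K-LM P3 to P4 gave 1 in the all-routes model. T-LM P4 to P5 (main 1) gave 0 in the all-routes model, with the groups alone, the floor, no filter and probes detected throughout a group. T-LM P5 to P6 (main 1) gave 0 in the same settings other than no filter, where the 1 call was of another probe, and 2 with normexp. The floor, at -5.00, is the highest over arrays of the lowest level well above background, so it lies above K-LM P6 values of A_55_P2007017 that are well above background on their own arrays and left 0 difference there; the bounds in the report use each dim array's own lowest level. Other causes were not tested.

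Leaving out each sample gave 0 to 1 calls for K-LM P0 to P3, 0 to 0 for K-LM P0 to P6, 1 to 4 for K-LM minus KPT at P5 (1 without K-LM P5 replicate 6, 2 without replicate 5), 0 to 4 for K-LM minus T-LM at P5, 0 to 2 for K-LM minus T-LM at P6, and 0 to 1 for T-LM P4 to P5 and P5 to P6. Without a P0 replicate the lone P0 sample is assumed to vary like the other groups. Replicate numbers were not used as pairs in the main fits. No comparison with 3 or more pairs had every correlation of deviations over 0.1 (they ran from -0.644 to 0.771 over all). So few pairs cannot show whether equal numbers share a lineage, and some values were positive, as in K-LM P4 to P5 (0.344 and 0.365). In K-LM minus KPT at P5 the replicate block left 3 of 4 calls, and that block moved no other count than those given. Among the single probes called, 106 of 185 alternatives kept the call, 79 lost it and none reversed. T-LM minus KPT at P1 with probes detected throughout a group, and KPT P0 to P5 with the groups alone, left no member probe to test. Dim levels limit the P0 comparisons, where Zscan4b was not above background.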
